A study of Mus musculus with 6 samples.

Results

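Malat1, Neat1 and Kcnq1ot1 are long RNAs that stay in the nucleus after transcription, and they were followed as shares of the RNA counted per cell in sorted lymph node myeloid cells. They are 3 of the 32287 genes of the deposited count matrix, and were chosen by name, for where they reside, with earlier results of these data known. The comparison addressed whether barcodes with little RNA and the markers of medullary sinus macrophages (MSMs) held nuclei. Cells came from the inguinal lymph nodes of CD169Tom mice on a C57BL/6J background. These mice carry Cre at the Siglec1 (CD169) locus in 1 copy and a Cre-dependent tdTomato reporter in both copies (Cd169Cre/+.Tdtomato fl/fl). All groups share these alleles, and the reporter marks any cell whose lineage ever turned on Siglec1, so TOM+ cells need not express CD169. There were 2 unimmunized mice and 2 mice taken at day 9 after immunization with hen egg lysozyme (HEL). All mice were older than 6 weeks, and the sources used here give no exact age. CD11b hi TOM+ cells were sorted, tagged with 1 hashtag antibody per mouse, pooled, and split over 2 10X captures for CITE-seq, which counts mRNA and antibody tags on the same cells. The mouse is the replicate.

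Malat1 gathers in nuclear speckles, bodies that hold splicing factors. Neat1 is the scaffold of paraspeckles, which form around the RNA as it is transcribed. Kcnq1ot1 is transcribed from the paternal chromosome, antisense to Kcnq1, and silences neighbouring genes of that imprinted domain in cis. In droplet data, stripped nuclei are known for a high share of such RNAs and a low share of mitochondrially encoded (mt-) transcripts, since mitochondria remain with the cytoplasm. Cells that leak cytoplasm are known for high shares of both. MSMs are large sinus-lining macrophages that bind lymph-borne particles through scavenger and lectin receptors such as Marco and Cd209b, and sinus macrophages are known to fragment when a lymph node is digested.

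A count from a 3′ capture depends on where oligo-dT can prime, so the loci and their longest runs of A are given first (mm10, RefSeq sequence of GRCm38.p6). Malat1 (ENSMUSG00000092341) lies at chr19:5795690-5802672 on the minus strand, spans 6983 bases and is annotated as a lincRNA. Neat1 (ENSMUSG00000092274), also a lincRNA, lies at chr19:5824708-5845480 on the same strand, spans 20773 bases and starts 22035 bases away. Kcnq1ot1 (ENSMUSG00000101609) lies at chr7:143213111-143296547 on the minus strand and spans 83437 bases inside Kcnq1, which occupies chr7:143106362-143427042 on the other strand. The windows below show, in the transcript's direction, the longest A run of Malat1 and of Neat1 in capitals. They are shown because a long run of A can be primed in place of a poly(A) tail.
Malat1 (chr19:5795979-5796008, minus strand): cctagctttAAAAAAAAAAAAgcaaaagac
Neat1 (chr19:5835923-5835952, minus strand): agcctggactatAAAAAAAccttcatgagg
The Malat1 run of 12 A ends 298 bases from the annotated 3′ end. The longest run of Neat1 was 7 A, under the 10 A counted below, and ended 11226 bases from its 3′ end. That of Kcnq1ot1, not shown, was 41 A and ended 13834 bases from its 3′ end. Runs of 10 or more A numbered 1 in Malat1, 0 in Neat1 and 9 in Kcnq1ot1. The sources used here do not state whether the counting used strand, so reads of Kcnq1ot1 and Kcnq1 may not be told apart. Kcnq1 itself had 0 UMIs in the gated types. Levels of the 3 RNAs are therefore compared between cell groups and never with each other.

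The matrix held 18662 barcodes. The 621 sequences that occurred in both captures (1242 barcodes) were left out because the hashtag table cannot tell them apart. After assignment to 1 mouse and a limit of 25% mt- UMIs, 12139 barcodes remained. They numbered 2828 and 537 in the unimmunized mice and 4052 and 4722 in the immunized mice. Their median depth was 5877 and 6280 UMIs in unimmunized and 9674 and 12727.5 UMIs in immunized mice. Marker genes placed 7086 barcodes in 16 types and left 5053 not gated. The MSM-like type rests on Marco, Cd209b, Cd209f, Cd209g, Timd4 and Cd5l and held 436 barcodes, of which 268, 30, 125 and 13 came from unimmunized mice 1 and 2 and immunized mice 1 and 2. Low-RNA barcodes are those with fewer UMIs than the mouse's median divided by 3, and the others are called full-depth. The limits were 1959 and 2093 UMIs in unimmunized and 3225 and 4242 UMIs in immunized mice. Full-depth MSM-like barcodes of the unimmunized mice had medians of 3011 and 2567.5 UMIs, under the limits of the immunized mice. A class thus holds unlike depths in the 2 conditions. By this rule 254 MSM-like barcodes were low-RNA and 182 were full-depth. Of the full-depth MSM-like barcodes 113, 18, 50 and 1 came from the 4 mice in the same order, so immunized mouse 2 gave no full-depth library. All 6 markers were found in the low-RNA MSM-like barcodes, with a summed level of 8048 CPM, a scale of UMI shares on which 0.1% is 1000 CPM, and in the full-depth ones, with 4741 CPM. Markers of red cells and platelets summed to 6.9 CPM in the low-RNA barcodes.

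MSM-like barcodes had the lowest Malat1 share of the 16 types. It was 0.202% and 0.0179% of UMIs in the unimmunized mice and 0.075% and 0.0173% in the immunized mice, a mean of 0.078% ± 0.0869 (SD, n = 4). The other types as a whole had 1.36% and 1.48% in the unimmunized mice and 1.19% and 1.16% in the immunized mice, a mean of 1.30% ± 0.15 (SD, n = 4). The ranges did not overlap, the mean of the other types was 16.6 times that of MSM-like barcodes, and MSM-like was lower in 4 of 4 mice. Without unimmunized mouse 1 the MSM-like mean fell to 0.0367%. An exact two-sided sign-flip permutation test over the 4 mice gave p = 0.125, the smallest it can give, and 0.333 after Benjamini-Hochberg adjustment over 12 comparisons. Within captures 1 and 2 the MSM-like share was 0.158% and 0.122% against 1.18% and 1.25% in the other types.

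**Figure D1:**
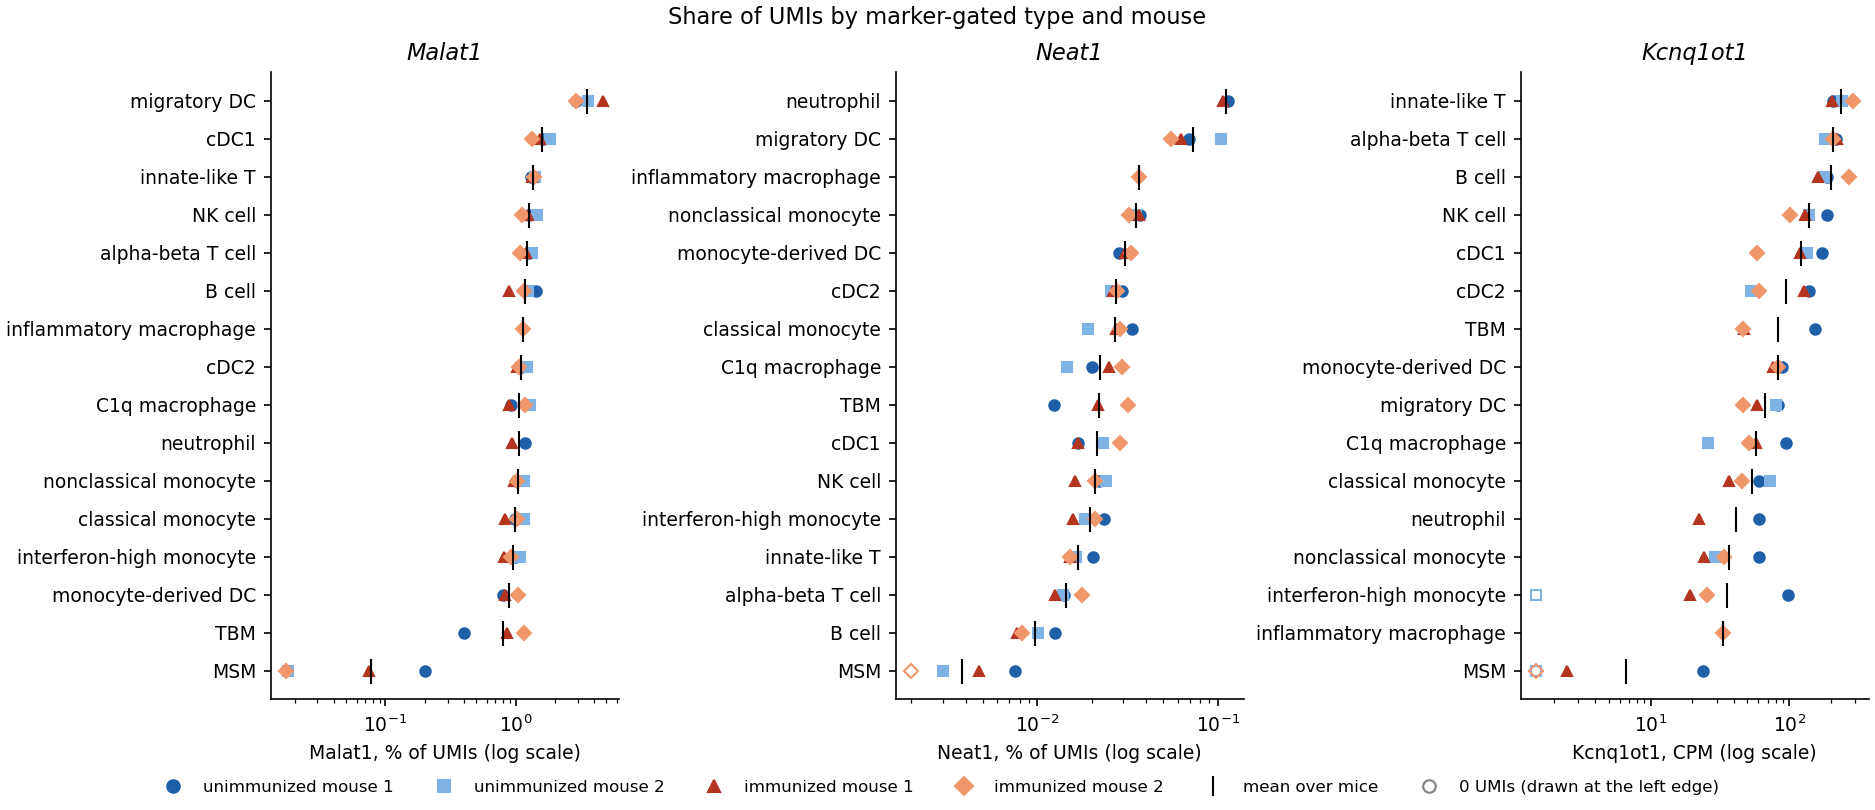
Level of Malat1 and Neat1 (% of UMIs) and of Kcnq1ot1 (CPM) in the 16 marker-gated types, log scale, with 1 point per mouse and a bar at the mean over mice. Open points had 0 UMIs and are drawn at the left edge. MSM-like barcodes sit lowest in each panel, at means of 0.078%, 0.0038% and 6.6 CPM.

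Above the MSM-like type, Malat1 varied little among the myeloid and lymphoid types and peaked in migratory dendritic cells. Means ran from 0.808% in TBM-like (tingible body macrophage) barcodes, a type that engulfs dying germinal centre B cells, to 1.36% in innate-like T cell-like and 1.59% in cDC1-like barcodes. The C1q macrophage-like type had 1.07%, and classical monocyte-like barcodes had 0.999%. Migratory DC-like barcodes, which carry Ccr7 for entry into lymph nodes, had 2.92% and 3.62% in unimmunized and 4.7% and 2.93% in immunized mice. Of the 13 pairs of neighbours in this order with at least 2 mice, 4 differed by more than the SD of their difference and 9 did not. One of the 4, from neutrophil-like to C1q macrophage-like, ran against the order within mice (-0.152 points ± 0.138, upward in 0 of 2). The step from MSM-like to TBM-like was 0.71 percentage points ± 0.476 (SD, 3 mice), upward in 3 of 3. The step from cDC1-like to migratory DC-like was 1.96 points ± 0.835, upward in 4 of 4. Over the 39 comparisons of neighbours for the 3 RNAs no exact sign-flip test passed, with adjusted p of at least 0.696. None could have passed, since this test over 4 mice gives no p under 0.125 and over fewer mice none so small. The order was also set by the values compared.

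Neat1 was also lowest in MSM-like barcodes under the gate used here, with B and T cells close above them and neutrophils at the top by the mean. MSM-like shares were 0.00749% and 0.00298% in unimmunized and 0.00474% and 0 in immunized mice, which rest on 47, 2, 19 and 0 UMIs. The mean was 0.0038% ± 0.00314 (SD, n = 4). The other types had 0.0278%, 0.026%, 0.027% and 0.0294%, a mean of 0.0275%, which is 7.24 times the MSM-like mean, and MSM-like was lower in 4 of 4 mice (exact sign-flip p = 0.125, adjusted 0.333). B cell-like barcodes had 0.00967% and alpha-beta T cell-like barcodes 0.0145%. At the upper end stood migratory DC-like barcodes with 0.0732% and neutrophil-like barcodes with 0.114% and 0.107% in the 2 mice that had at least 10 of them. The other two mice had 2 and 6 such barcodes, with 0.0309% and 0.0456%, under the 0.105% and 0.055% of their migratory DC-like barcodes, so the top place rests on unimmunized mouse 1 and immunized mouse 1. The steps from MSM-like to B cell-like, 0.00587 points ± 0.00231, and from migratory DC-like to neutrophil-like were among the 4 of 13 that exceeded their SD.

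Kcnq1ot1 was highest in lymphocytes and lowest, under the gate used here, in MSM-like barcodes. It was not found in 98.4% of MSM-like barcodes, 65.5% of the other types together and 43.8% of innate-like T cell-like barcodes. These groups differ in depth, with medians of 2116.5, 10293 and 6299 UMIs. With each barcode thinned to 1000 UMIs, Kcnq1ot1 was found in 0.715%, 7.58% and 17.6%. In MSM-like barcodes it had 23.9 CPM in unimmunized mouse 1, from 15 UMIs, and 2.49 CPM in immunized mouse 1, from 1 UMI. It had 0 UMIs in the other two mice. The mean was 6.6 CPM ± 11.6 (SD, n = 4), so nearly all of it came from 1 mouse. The other types had 148.3 and 111.4 CPM in unimmunized and 70.5 and 49.7 CPM in immunized mice, above MSM-like in 4 of 4 mice (exact sign-flip p = 0.125, adjusted 0.333). B cell-like, alpha-beta T cell-like and innate-like T cell-like barcodes had means of 200, 207 and 235 CPM, against 54.0 CPM in classical monocyte-like barcodes. Of 13 pairs of neighbours, 2 differed by more than their SD.

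The test across all genes used full-depth libraries, 1 per mouse and type, and compared MSM-like with the mean of the other types. All 3 RNAs were lower. The gate, described next, had been set after Malat1 was seen, so the p values are not from a test fixed beforehand. Malat1 had a log2 fold change of -3.10 ± 0.404 (SE, adjusted p = 5.94e-08), Neat1 -2.01 ± 0.338 (adjusted p = 1.05e-05) and Kcnq1ot1 -2.91 ± 0.642 (adjusted p = 0.000557), by the quasi-likelihood test of edgeR, with p adjusted over all genes tested by the method of Benjamini and Hochberg. Of 10931 genes 20.9% were called in either direction and 8.34% as lower, and the median over all genes was -0.16. The Kcnq1ot1 call was lost without unimmunized mouse 1 (adjusted p = 1.0 by edgeR), which held 14 of the 15 UMIs in these barcodes. The full-depth MSM-like barcodes still had fewer UMIs than the other types, with medians of 3479.5 and 10523.

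The MSM-like value depends on how the type was gated. The gate asks for at least 2 markers and for a lead over every other type's score, and it was set after Malat1 had been seen in barcodes with 2 or more MSM markers. There were 757 barcodes with 2 or more MSM markers, and together they had 0.666% Malat1. The 436 that passed the gate had 0.14%, the 140 that passed to another type had 1.08%, and the 181 not gated had 0.73%. With the markers alone and no lead asked, a setting added after the data were seen, mean shares were 0.682% for Malat1, 0.0152% for Neat1 and 73.5 CPM for Kcnq1ot1. Malat1 then still lay under the 0.808% of the TBM-like type, but Neat1 lay above the B cell-like and alpha-beta T cell-like means and Kcnq1ot1 above those of 7 types, so their lowest rank was lost. The fitted difference from the other types was then -0.68 for Malat1 (edgeR adjusted p = 0.0135) and -0.08 for Kcnq1ot1 (adjusted p = 0.991). Doublets within 1 mouse were not removed, and their part in these values was not tested.

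Low-RNA MSM-like barcodes had smaller summed Malat1 shares than full-depth ones in the 2 mice with most of the barcodes, a difference that lay in a minority of barcodes. The median Malat1 share per barcode was 0 in both classes of every mouse that had at least 10 barcodes of each. The low-RNA shares were 0.0437% and 0.0184% in the unimmunized mice and 0.024% and 0.00673% in the immunized mice. The full-depth shares were 0.291% and 0.0177% in the unimmunized mice and 0.11% in immunized mouse 1. Unimmunized mouse 2 showed no such difference, with 3 and 9 UMIs behind its values, so the groups overlapped. Low-RNA was lower in 2 of 3 mice (exact sign-flip p = 0.5, adjusted 0.545). Low-RNA barcodes of the other types had summed shares of 1.97% in unimmunized mouse 1 and 1.79% and 2.23% in the immunized mice. These lay above the 1.36%, 1.19% and 1.16% of all barcodes of those types. Such low-RNA barcodes numbered 31 in unimmunized mouse 1 and 95 and 109 in the immunized mice, and only 3 in unimmunized mouse 2. They were pooled over types, and the mix of types was not matched to that of all barcodes. The part of this mix in the higher shares was not tested.

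In the fit the low-RNA MSM-like libraries were lower than the full-depth ones by -2.58 ± 0.431 in log2 for Malat1 (edgeR adjusted p = 0.00107), the third smallest p among the 10931 genes. Neat1 had -0.92 ± 0.572 (adjusted p = 0.802), and Kcnq1ot1, whose UMIs were 0 in most of these libraries, did not pass (adjusted p = 0.853). In this comparison 42 genes were called, 0.384% of those tested, with 0.366% called as lower and 0.0183% as higher. DESeq2 called 29. Markers of other cells also differed between the classes. From low-RNA to full-depth, classical monocyte markers summed to 78.2 and 228.5 CPM and innate-like T cell markers to 4.6 and 40.2 CPM, while C1q macrophage markers summed to 4554 and 2502 CPM and B cell markers to 85.1 and 47.4 CPM. Their part in the Malat1 difference was not tested. Without unimmunized mouse 1 the Malat1 difference was -1.76 and no longer passed (edgeR adjusted p = 0.577), and over the fits that left out 1 mouse each the count of called genes ran from 2 to 57. The count was 2 without unimmunized mouse 2 and 5 without immunized mouse 2.

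**Figure D2:**
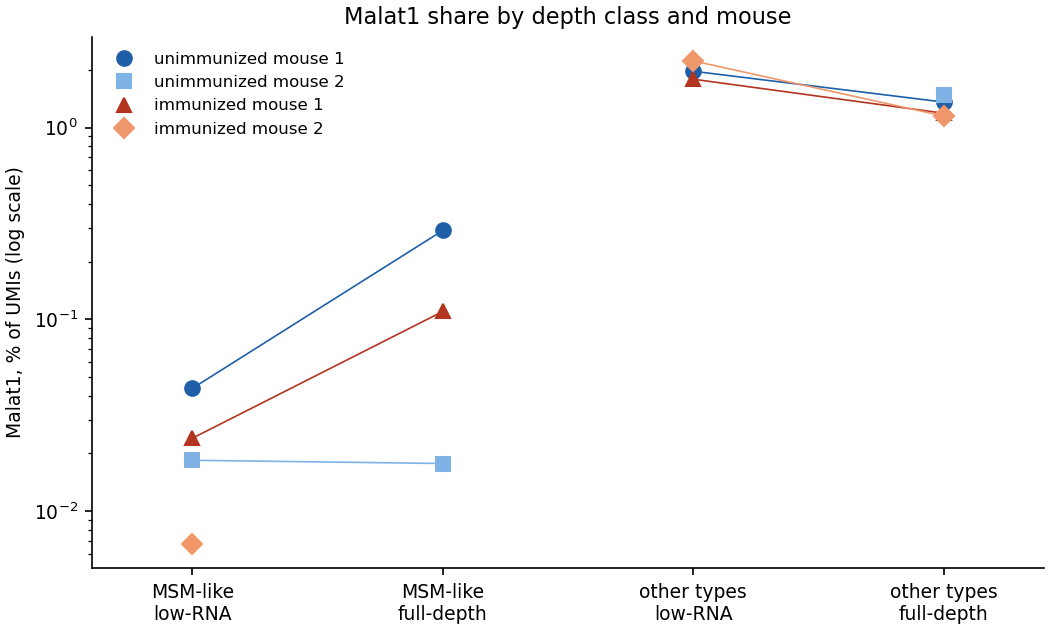
Malat1 as % of UMIs, log scale, in low-RNA and full-depth barcodes of the MSM-like type and of the other types, with 1 point per mouse and lines joining the classes of 1 mouse. Groups under 10 barcodes are not drawn. MSM-like points lie between 0.00673% and 0.291%, and other-type points all lie above 1%.

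The summed Malat1 share was lower in the low-RNA class of the MSM-like type in 2 of 3 mice. In the other types, pooled without matching types, it was higher in the low-RNA class in 3 of 3. By the median per barcode, the other types of unimmunized mouse 1 went the other way, with 0.711% in low-RNA and 1.19% in full-depth barcodes. In the immunized mice these medians were 1.39% and 1.74% in low-RNA against 0.908% and 1.01% in full-depth barcodes. The contrast of summed shares could be tested only in the immunized mice and in 5 other types. These were B cell-like, C1q macrophage-like, inflammatory macrophage-like, interferon-high monocyte-like and neutrophil-like. The difference of the differences was -3.02 ± 0.711 for Malat1, with an edgeR adjusted p of 0.116, and 0.033 with the mouse as a block. In capture 2 alone it was -0.14 (adjusted p = 1.0). For Neat1 it was -1.79 (adjusted p = 0.585). edgeR called 0 genes here (0.0% of those tested), with 1029 at an unadjusted p under 0.05, DESeq2 called 1, and edgeR with the mouse block 8. Low-RNA libraries were also compared directly, an addition made after the data were seen that used the immunized mice and the same 5 types alone. This gave -6.22 ± 0.605 for Malat1 (edgeR adjusted p = 1.61e-10), -4.11 ± 0.604 for Neat1 (adjusted p = 1.7e-06) and -8.41 ± 3.4 for Kcnq1ot1 (adjusted p = 0.101). edgeR called 13.1% of genes there, 2.22% as lower and 10.9% as higher, and the median over all genes was 1.08, so these values are read against an upward shift. The Neat1 value ran from -11.70 without immunized mouse 1 to -2.40 without immunized mouse 2, and its call was lost with 3 markers and in either capture alone. The full-depth MSM-like side of the difference is the lone library of immunized mouse 1, which is assumed to vary as the other libraries do.

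Counted against what the other types of the same mouse would give, the low-RNA MSM-like barcodes held a small remainder of each RNA. At the other types' shares, their 435002 UMIs would include 5608 Malat1 UMIs. They held 143, which is 2.55% of that number (95% Poisson interval of the count, 121 to 168). For Neat1 18 UMIs were counted against 119.7 (15%, count interval 10.7 to 28.4), and for Kcnq1ot1 1 against 48.32 (2.07%, count interval 0.0253 to 5.57). The full-depth MSM-like barcodes held 15.8%, 26.2% and 18.2% of the numbers so derived. These intervals and the binomial ones that follow are at 95% and cover counting error only.

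Detection of Malat1 in MSM-like barcodes stayed low at equal depth. No Malat1 UMI was found in 271 of 436 MSM-like barcodes (62.2%, exact binomial interval 57.4 to 66.7) against 1.77% in the other types. Neat1 was not found in 394 (90.4%) and Kcnq1ot1 in 429 (98.4%). Thinned to 1000 UMIs, which left out 7 MSM-like barcodes and 1 of the other types, 24.8% of MSM-like barcodes had a Malat1 UMI. The low-RNA ones had 25.7% and the full-depth ones 23.6%. The same depth gave 97.0% in the other types, 82.1% in their low-RNA barcodes, 93.5% in B cell-like and 99.7% in classical monocyte-like barcodes. Every type should contain these RNAs, so none serves as a blank for free RNA in the droplets.

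Barcodes with a Malat1 share under 0.1% formed a separate low group in the data, and most MSM-like barcodes were in it. The limit was set after the distribution had been seen. Of all 12139 barcodes 1678 (13.8%) lay under it, with 1503 of these under 0.05% and only 105 barcodes between 0.1% and 0.2%. Of MSM-like barcodes 381 of 436 did (87.4%, interval 83.9 to 90.4), namely 221 of 268 and 29 of 30 in unimmunized and 118 of 125 and 13 of 13 in immunized mice. It was 89.0% in low-RNA and 85.2% in full-depth MSM-like barcodes. Among the other types it was 3.11%, and 21% in their low-RNA barcodes. TBM-like barcodes had 17.2%, cDC1-like 13.0%, migratory DC-like 10.7%, B cell-like 7.17% and C1q macrophage-like 5.98%, while classical monocyte-like barcodes had 0 of 1334. The MSM-like value depends on the gate, which was set after Malat1 was seen. Of the 757 barcodes with 2 or more MSM markers, gated or not, 479 (63.3%) lay under the limit. Among them it was 46.4% of the 181 not gated and 10.0% of the 140 gated to another type.

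In the other types the share of barcodes under the limit fell with depth. In the MSM-like type, as gated here, it was 86.0% or more up to 6000 UMIs. Under 1500 UMIs 90.2% of MSM-like and 40.6% of other-type barcodes had under 0.1% Malat1. From 3000 to 6000 UMIs the shares were 86.0% and 7.37%. From 6000 to 9000 UMIs 6 of 12 MSM-like barcodes and 3.35% of the others lay under the limit.

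**Figure D3:**
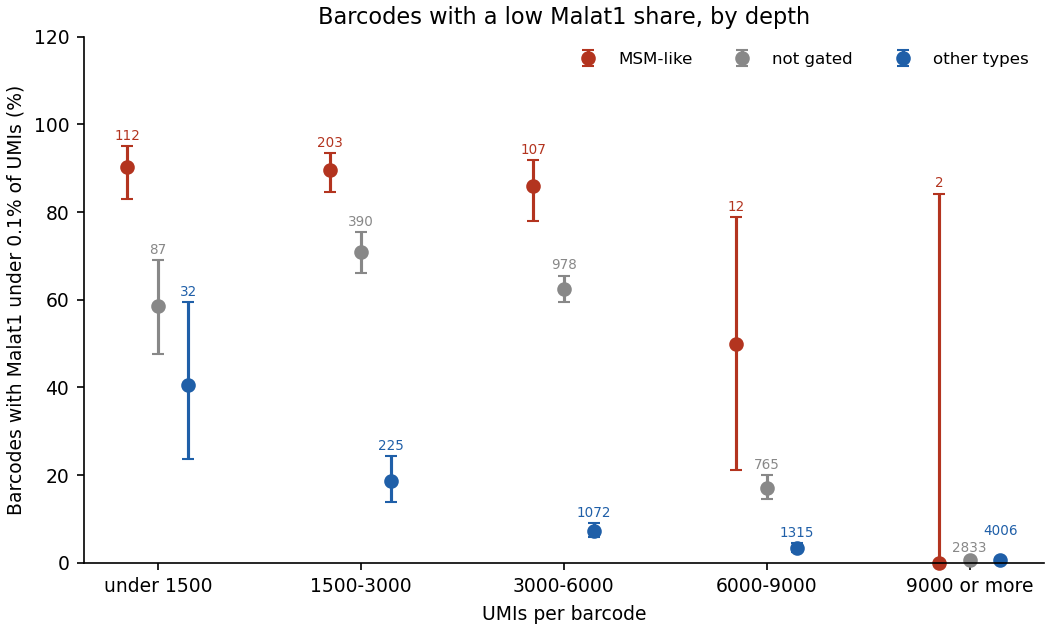
Percentage of barcodes with a Malat1 share under 0.1% of UMIs, by UMIs per barcode, for MSM-like, not gated and other-type barcodes. Bars are exact 95% binomial intervals and the numbers are barcodes. MSM-like barcodes, as gated here, are at 90.2%, 89.7% and 86.0% in the first 3 depth ranges, where the other types fall from 40.6% to 7.37%.

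The few MSM-like barcodes at or above 0.1% Malat1 also held more of the other nuclear RNAs and of some, not all, markers of other cells. There were 55, and 47 of them came from unimmunized mouse 1. They had 0.0226% Neat1 and 75.4 CPM Kcnq1ot1, from 15 UMIs, against 0.00247% and 1.07 CPM, from 1 UMI, in the 381 below. Xist, the RNA that coats the inactive X chromosome, had 1070 CPM against 40.8 CPM. Innate-like T cell markers summed to 135.7 CPM against 3.22 CPM, classical monocyte markers to 703.4 CPM against 56.9 CPM, and nonclassical monocyte and NK cell markers were higher too. The opposite held for C1q macrophage (1673 against 3637 CPM), TBM (195.9 against 421.8 CPM), interferon-high monocyte, monocyte-derived DC and B cell markers, and for the MSM markers themselves (3411 against 6569 CPM). The median mt- share was 4.12% against 2.75%, and the median hashtag count was 1179 against 810. These medians pool the mice, and unimmunized mouse 1 gave 47 of the 55 but 221 of the 381. Its MSM-like barcodes had a median mt- share of 3.66%, against 1.55%, 1.65% and 2.77% in the other mice. The part of the mouse in these 2 differences was not tested. The part of these other markers in the Malat1 share was not tested.

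A range of high Malat1 and low mt- share, meant for stripped nuclei, held no MSM-like barcode. It was set in each mouse from the full-depth barcodes of the other types. It asks for a Malat1 share above their 95th percentile together with an mt- share below their 5th percentile. The Malat1 limits were 2.84% and 2.82% in unimmunized and 3.1% and 2.24% in immunized mice. Migratory DC-like barcodes lay above them, with 2.92%, 3.62%, 4.7% and 2.93%. Where a nucleus of an MSM would lie was not measured, so an empty range does not show that nuclei were absent. It held 0 of 436 MSM-like barcodes, which allows a share of up to 0.688%, and 0 of the 254 low-RNA ones, which allows up to 1.18%. In the other types it held 31 of 6650 (0.466%, interval 0.317 to 0.661), and in their low-RNA barcodes 5 of 238 (2.1%, interval 0.686 to 4.83). At the depth of these data the MSM-like share therefore cannot be told from that of the other types. The Malat1 limit alone was passed by 1 of 436 MSM-like barcodes and by 5.79% of the other types. Among low-RNA barcodes it was passed by 0 of 254 MSM-like and 63 of 238 of the other types (26.5%). The mt- limit alone was passed by 112 MSM-like barcodes (25.7%). It was passed by 15.7% of low-RNA and 39.6% of full-depth MSM-like barcodes. In the other types, whose full-depth barcodes set the limit, it was passed by 5.38%, and by 15.1% of their low-RNA barcodes.

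Mitochondrial transcripts were present in low-RNA MSM-like barcodes at shares that depended on the mouse. Their median mt- share was 4.11% and 2.49% in unimmunized and 2.35% and 2.56% in immunized mice. In full-depth MSM-like barcodes it was 2.92% and 0.961% in the unimmunized mice and 1.04% in immunized mouse 1, lower in each of the 3 mice. The other types had a median of 3.7%, and their low-RNA barcodes 5.77%. MSM-like barcodes held a median of 976.5 genes, 816.5 in the low-RNA and 1235.5 in the full-depth class, against 2760 in the other types. Median UMIs were 2116.5, 1549.5, 3479.5 and 10293 in the same order. These medians pool the mice and depend on the gate. Of the barcodes with 2 or more MSM markers, the 436 that passed had a median of 2116.5 UMIs. The 140 gated to another type had 7399.5, and the 181 not gated 5778. By mouse, median genes were 918.5 and 910.5 in unimmunized and 1127 and 1036 in immunized MSM-like barcodes. The other types had 2259 and 2304, and 2682.5 and 3136.5.

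**Figure D4:**
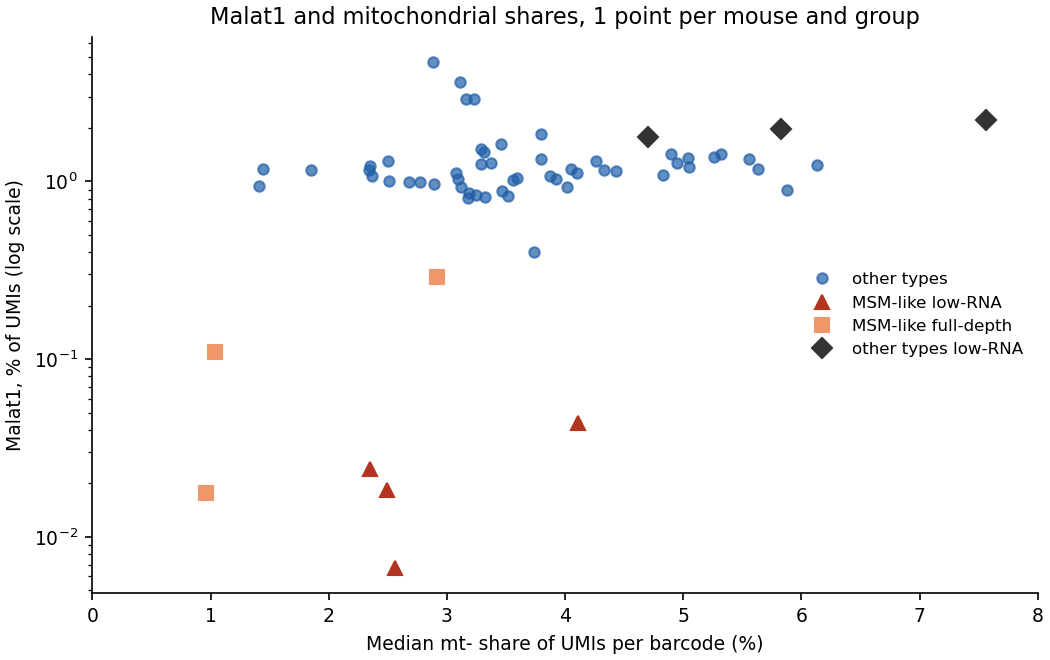
Malat1 share of UMIs (log scale) against the median mt- share per barcode, with 1 point per mouse and group of at least 10 barcodes. Low-RNA MSM-like points have Malat1 of 0.00673% to 0.0437% at mt- shares of 2.35% to 4.11%, and low-RNA points of the other types have 1.79% to 2.23% at mt- shares of 4.7% to 7.56%.

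A low mt- share went with low Malat1 across the data, beyond the MSM-like type. Of all barcodes with under 1% mt- UMIs, 857 of 980 (87.4%) had under 0.1% Malat1. Among MSM-like barcodes this held for 69 of 72. The 540 barcodes removed for over 25% mt- UMIs had 1.33% Malat1, and 112 of them lay under 0.1%. Only 3 of the removed barcodes were MSM-like, and all 3 lay under it.

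Hashtag counts were somewhat lower in low-RNA barcodes, CD68 antibody counts somewhat higher, and CD169 counts differed by less than their spread. The median hashtag counts of low-RNA and full-depth MSM-like barcodes were 841 and 1142 in unimmunized mouse 1, 1094 and 1174 in unimmunized mouse 2, and 502 and 573 in immunized mouse 1. The log2 difference was -0.24 ± 0.176 (SD, n = 3), lower in 3 of 3 mice (exact sign-flip p = 0.25, the smallest 3 mice allow, adjusted 0.583). Median CD169 antibody counts were 37 and 39, 33 and 32, and 16 and 12 in the same mice, a log2 difference of 0.12 ± 0.24 (SD, n = 3, exact sign-flip p = 0.75). For CD68 it was 0.49 ± 0.391 and for F4/80 0.6 ± 0.729, both higher in 3 of 3 mice (exact sign-flip p = 0.25, adjusted 0.583). CD11c, Ly-6c and Ly-6g had -0.26 ± 0.434, -0.04 ± 0.149 and -0.39 ± 0.338, with sign-flip p of at least 0.5.

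Among 20 nuclear-retained long RNAs, 16 could be tested, and those called in the comparisons below were all lower. The list holds Malat1, Neat1 and Kcnq1ot1 themselves, which enter its counts and medians, so it is no separate check on them. Beside them, the called RNAs were Xist between the depth classes, and Tsix, Xist, Dleu2 and Gm26917 at full depth. In the low-RNA libraries they were Mir142hg, Xist and Dleu2. Of all 10931 genes 0.366% were called lower between the MSM-like depth classes. Against the other types it was 8.34% at full depth and 2.22% in the low-RNA libraries. In low-RNA against full-depth MSM-like barcodes 0 rose and 2 fell, Malat1 and Xist, with a median of -2.22 against -0.14 over all genes. Xist had 61.8 and 0 CPM in the low-RNA barcodes of the unimmunized and 55.4 and 0 CPM in those of the immunized mice. It had 493 and 39.3 CPM in the full-depth barcodes of the unimmunized mice and 113 CPM in immunized mouse 1 (log2 fold change -2.20 ± 0.507, edgeR adjusted p = 0.0311). Against the other types at full depth 0 of the 16 were higher and 7 lower, namely Tsix, Malat1, Kcnq1ot1, Xist, Dleu2, Gm26917 and Neat1, with a median of -2.18 against -0.16. In the low-RNA libraries, compared in the immunized mice alone, 5 were lower, Mir142hg, Malat1, Xist, Neat1 and Dleu2, with a median of -4.08 against 1.08. Xist and its antisense RNA Tsix overlap, and their counts may not be separable.

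The mRNAs of proteins that sit with these RNAs in nuclear bodies were in part lower than in the other types. Over all genes 8.34% were called lower and 12.6% higher at full depth, and 2.22% lower in the low-RNA libraries. Of 20 paraspeckle proteins 0 were called between the MSM-like depth classes (edgeR, median -0.02). At full depth 6 were lower than in the other types, among them Sfpq and Matr3, which encode RNA-binding proteins, with a median of -0.73. In the low-RNA libraries 1 was lower, with a median of 0.12 against 1.08 over all genes. Of 27 nuclear speckle proteins 0 were called between the depth classes (median -0.41), and 17 were lower than in the other types at full depth (median -1.04) and 12 in the low-RNA libraries (median -0.89). Of 14 genes of the Kcnq1 domain 6 could be tested. None was called between the depth classes, and Osbpl5, which encodes a lipid transfer protein, was higher in MSM-like barcodes at full depth, 1 of 6 against the 12.6% of all genes.

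Mitochondrial and cytoplasmic mRNAs gave a mixed picture. Of 13 mt- mRNAs 0 were called between the depth classes, with a median of 0.55, while 8 were lower than in the other types at full depth (median -0.79) and 7 in the low-RNA libraries (median -1.12). Of 30 housekeeping mRNAs 2 fell in low-RNA barcodes, the actin-binding Tmsb10 and the elongation factor Eef1a1. Against the other types at full depth 9 were higher, among them the ferritin chains Ftl1 and Fth1 and the lysosomal protease Ctsb, and 5 were lower. In the low-RNA libraries 18 were higher and 3 lower, with a median of 0.85, under the 1.08 of all genes. Of 80 ribosomal protein genes 29 fell in low-RNA against full-depth MSM-like barcodes (median -0.70), 17 stood higher and 3 lower at full depth against the other types (median 0.10), and 73 were higher in the low-RNA libraries (median 1.11, close to the 1.08 of all genes). Over all genes 40 (0.366%) were called lower between the depth classes, so the 29 ribosomal protein genes were most of them. At full depth 8.34% of all genes were called lower and 12.6% higher, and in the low-RNA libraries 2.22% and 10.9%. CPM are shares, so a fall of some genes raises others.

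Summed over the list, the nuclear-retained RNAs were at 645 and 368 CPM in low-RNA MSM-like barcodes of the unimmunized and 375 and 67.3 CPM in those of the immunized mice. The other types had 16100, 17000, 13800 and 13200 CPM. The summed housekeeping mRNAs stood at 129000, 127000, 154000 and 173000 CPM against 98500, 98100, 111000 and 121000 CPM. Full-depth MSM-like barcodes had 128000 and 153000 CPM in the unimmunized mice and 162000 CPM in immunized mouse 1, so this level was not particular to the low-RNA class. The housekeeping list includes Ftl1, Fth1 and the lysosomal protease Ctsb, and the part of cell type in its sum was not tested. In each mouse the low-RNA MSM-like barcodes were thus below the other types on the first sum and above them on the second. Malat1 alone made up 437.3, 184, 239.9 and 67.29 CPM of the first sum in the low-RNA MSM-like barcodes of the 4 mice. In the other types it made up 13610, 14780, 11940 and 11560 CPM. The first sum thus largely repeats the Malat1 share, under a gate set after Malat1 was seen.

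Beside Malat1 and Xist, the called genes with the largest fold changes between the MSM-like depth classes, at a mean log2 CPM of at least 5, were Tet3, Supt6, Gpx1 and Otud4. Gpx1, a glutathione peroxidase, had 464 and 920 CPM in the low-RNA barcodes of the unimmunized and 658 and 1450 CPM in those of the immunized mice. It had 1470 and 2600 CPM in the full-depth barcodes of the unimmunized mice and 1410 CPM in immunized mouse 1 (log2 fold change -1.51 ± 0.22, edgeR adjusted p = 7.64e-05). Tet3, a 5-methylcytosine dioxygenase, had 1 UMI against 23, and Supt6, an elongation factor, 2 against 22. Otud4, a deubiquitinase, was the only one of these 4 that was higher, with 25 UMIs against 13 in full-depth barcodes (edgeR adjusted p = 0.0465).

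Immunization gave no call for the 3 RNAs in MSM-like barcodes with both captures together. In capture 2 alone Malat1 passed at full depth (-3.51, edgeR adjusted p = 2.89e-06), and the change of the depth difference turned to 3.29 and passed (adjusted p = 0.0166). The Malat1 difference of immunized from unimmunized mice was -0.49 ± 0.591 in full-depth barcodes (edgeR adjusted p = 0.871) and -0.84 ± 0.658 in low-RNA ones (adjusted p = 0.906). The depth difference itself differed by -0.36 ± 0.877 between the conditions (adjusted p = 1.0). edgeR called 0 genes (0.0%) in each of these comparisons, with 913, 597 and 474 at an unadjusted p under 0.05, and DESeq2 called 0. With the mouse block, which refers each condition to its mouse 1, edgeR called 9 in full-depth and 5 in low-RNA barcodes. The immunized full-depth side is 1 library. Both classes were set by depth limits that were higher in the immunized mice, so the conditions are compared at unlike depths. Without unimmunized mouse 1 the Malat1 differences turned to 3.01 and 0.95, neither past the threshold.

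The genes whose level was most like that of each RNA were named by Pearson correlation of log2 CPM over 57 libraries of 1 mouse and type, among 6738 genes. These libraries share mice and types, and the values are a description. For Malat1 they were Krit1 (0.931), Phip (0.912), Tmx3 (0.907), Ccnt2 (0.906) and Polr2a (0.904). For Neat1 they were the immediate early genes Junb (0.91) and Ier5 (0.851), the mRNA decay factor Zfp36 (0.881), Srgn (0.868) and Tmcc1 (0.859). For Kcnq1ot1 they were Ezr (0.86), Tmem245 (0.855), Ogt (0.846), Ints6 (0.842) and Senp7 (0.832). Malat1 correlated with Neat1 at 0.813, with Kcnq1ot1 at 0.657 and with Xist at 0.891, and Neat1 with Kcnq1ot1 at 0.335.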

How the data were processed

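The authors aligned reads and deposited UMI counts per gene and barcode (Cell Ranger 4.0.0 with aggr, mm10, per the submitters' processing notes), and used CITE-seq-count for the deposited counts of hashtags and antibodies. No count was normalized. The sources used here do not state whether aggr equalized the captures. A barcode belonged to a mouse when its top hashtag held at least 80% and 10 counts. A type needed 2 distinct markers and a score, (CPM + 50)/(mean CPM + 50), above 1 and at least 2 times the next. UMIs were summed per mouse, type and depth class with at least 10 barcodes, giving 67 libraries and 10931 genes after filterByExpr, which entered 1 fit of the quasi-likelihood test of edgeR 4.0.16 under R 4.3.3, with TMM factors, at a Benjamini-Hochberg adjusted p of 0.05. Libraries were treated as independent, and nothing beyond the hashtag labels shows separate preparation, since all cells were pooled. The mouse pairs libraries, since all those of 1 mouse are 1 animal. The median correlation of their deviations was 0.0706 in unimmunized mice, with pairs from -0.029 to 0.212. In immunized mice it was 0.139, with pairs from -0.0579 to 0.669. With 2 mice per condition the deviations of 1 mouse mirror those of the other, so this is a weak check of independence. Alternatives were DESeq2 1.42.0, HTODemux of Seurat 5.3.0, a mouse block, other filters, depth limits, captures and gates, and leaving out each mouse. Where 0 was counted, the limit given is 3 counts over the total. The procedure was tested on simulated counts with a dispersion of 0.05 and changes set in full-depth MSM-like libraries. Between the depth classes it recovered 5.3% of log2 changes of 1 and 38.1% of changes of 2. Against the other types it recovered 18.1% and 64.9%. Recovery was not measured for immunization. A gene that was not called may therefore still differ. The genes named are the 3 RNAs, the called genes of the lists, the 5 highest and 5 lowest fold changes among genes called between the MSM-like depth classes with a mean log2 CPM of 5 or more, and the 5 genes most like each RNA. The 3 RNAs, lists and gates were chosen with earlier results of these data known. Sequences are from RefSeq. Doublets within a mouse were kept.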

Additional observations from a re-analysis of the deposited data

Results flagged for a closer look

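In 64 sets of 4 mice, 4 held a mouse far from the others by Dixon's criterion at 95%. Chance gives about 1 in 20 for independent sets, and the sets here overlap. Kcnq1ot1 in MSM-like barcodes stood at 23.9 CPM in unimmunized mouse 1, with 0 to 2.492 CPM in the other mice. In the low-RNA MSM-like barcodes, which are part of these, the same mouse had 4.417 CPM, from 1 UMI, with 0 in the others. The criterion flags any such set, whatever the value. The median mt- share of low-RNA MSM-like barcodes was 4.11% in unimmunized mouse 1 and 2.35% to 2.56% in the others. In cDC2-like barcodes the median mt- share was 2.35% in unimmunized mouse 2 and 3.87% to 4.1% in the others.

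The barcodes that no marker set claimed were used in no test, and 1090 of their 5053 (21.6%) had under 0.1% Malat1, against 3.11% in the other gated types. They made up 65.0% of all barcodes under that limit. Those under it had a median mt- share of 0.586%, 12 CPM of Xist, and median counts of 737 for hashtags and 32 for the CD169 antibody. Their share was 71.0% from 1500 to 3000 UMIs, 62.5% from 3000 to 6000 UMIs and 0.706% at 9000 UMIs or more.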

How the results depend on the processing

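The MSM-like Malat1 difference from the other types kept its direction and its call under 14 other settings (-4.0 to -0.68) and without each mouse (-4.93 to -2.66), as did that of the low-RNA libraries (-7.00 to -3.79, and -8.48 to -5.10). The low-RNA against full-depth Malat1 difference did so under 13 settings (-3.38 to -1.49) but not without unimmunized mouse 1 (-2.83 to -1.76 over the mice, adjusted p = 0.577 there), where Neat1 turned to 3.97. The gate behind these fits was set after Malat1 had been seen, and -0.68 is the value with markers alone. The direct comparison of low-RNA libraries holds immunized mice only, so leaving out an unimmunized mouse removes none of its libraries. The range of high Malat1 and low mt- share held 0.0% of MSM-like barcodes in 13 settings. The cause of the changes that follow was not tested.

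Called genes between the MSM-like depth classes, 42 as reported, were 4 with HTODemux, 4 with 3 markers, 5 and 2 in captures 1 and 2, 3 at 3000 UMIs, 8 with the median divided by 2 as depth limit, 3 without TMM, and 2 to 57 without 1 mouse. The difference of the depth difference between conditions, with 0 genes called as reported and 1 in capture 2, gave Malat1 0.10 with 3 markers, 3.29 in capture 2 (adjusted p = 0.0166) and 0.75 at 3000 UMIs, and -2.06 to 0.14 without 1 mouse (0.14 without immunized mouse 2, 0.13 without unimmunized mouse 2). There Neat1 was 0.39 in capture 1, 0.0335 at 3000 UMIs, and 0.12 without either of those mice (-10.20 to 0.12 in all), and Kcnq1ot1 1.69 with DESeq2 and 7.14 in capture 2.

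For the depth difference against other types, with 0 called as reported, the counts were 1 with DESeq2, 1 with 3 markers, 31 in capture 2, 409 at 3000 UMIs, 269 with the median divided by 2, 8 with the mouse block, 1 without mt- genes, 16 without a filter, 281 without an mt- limit, and 0 to 2 without 1 mouse. Malat1 passed there at -3.66 with DESeq2, -2.57 at 3000 UMIs, -3.26 with the median divided by 2, -3.00 with the mouse block, -2.95 without a filter and -2.92 without an mt- limit, but was -0.14 in capture 2, and Kcnq1ot1 was 0.0899 in capture 2.

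Genes called for MSM-like against other types, 2289 as reported, were 1388 with markers alone, of which 1297 were higher and 91 lower, 1242 in capture 2, 1040 with the median divided by 2, and 1169 to 2142 without 1 mouse (1169 without unimmunized mouse 1, 1298 without immunized mouse 1). Kcnq1ot1 lost its call at -0.08, -2.16 and -6.31 with markers alone, the median divided by 2 and without unimmunized mouse 1. In the low-RNA libraries, 1433 as reported, the counts were 917 with HTODemux, 318 with 3 markers, 167 and 524 in captures 1 and 2, 2215 at 3000 UMIs, 2503 with the median divided by 2, 940 with a 10% mt- limit, and 175 to 1527 without 1 mouse (175 without immunized mouse 1, 595 without immunized mouse 2). Neat1 lost its call there at -0.92 with 3 markers, -1.50 in capture 1 and -4.19 in capture 2. Kcnq1ot1 passed at -4.80 with DESeq2, -6.63 at 3000 UMIs, -6.07 with the median divided by 2 and -8.32 without a filter.

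For immunization at full depth, with 0 called as reported, 15 were called in capture 2, 8 at 3000 UMIs, 9 with the mouse block, 42 without a filter and 0 to 6 without 1 mouse. Malat1 was -3.51 in capture 2 (adjusted p = 2.89e-06) and -1.30 to 3.01 without 1 mouse, Neat1 0.0619 with 3 markers and 9.06 without unimmunized mouse 1, and Kcnq1ot1 5.39 without it. In low-RNA barcodes, with 0 called as reported, 1 was called with the median divided by 2, 3 without TMM, 5 with the mouse block, 5 without a filter and 0 to 4 without 1 mouse, Malat1 was -2.83 to 0.95 without 1 mouse, and Neat1 0.0616 in capture 1. The mouse block changed no other call of the 3 RNAs. Mean shares moved with markers alone to 0.682%, 0.0152% and 73.5 CPM, and Neat1 in the other types to 0.029% with 3 markers. The log2 hashtag difference was -0.45 at 3000 UMIs, and that of CD169 -0.37 at 3000 UMIs and -0.38 with the median divided by 2.

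A full-depth class at or above the mouse median left too few MSM-like barcodes for a fit. Depth limits most values here. MSM-like libraries hold 16307 to 401250 UMIs, Kcnq1ot1 rests on 16 UMIs in them, and immunized mouse 2 gave 13 barcodes.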

Other observations

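The not gated barcodes under 0.1% Malat1 were led by genes that none of the 16 marker sets holds. Prg3, an eosinophil granule gene, had 633 CPM in them against 20.9 CPM in the other not gated barcodes. 1300017J02Rik, Il22ra2, which encodes a soluble IL-22 binding protein, the immune regulator Cd200 and the phospholipase Pla2g2d followed. Ribosomal protein genes made up a median of 33.7% of their UMIs, against 18.6% in MSM-like barcodes. These genes were ranked after their values were seen, and the barcodes were chosen by their Malat1 share, so the values are a description with no test. MSM markers summed to 330.2 CPM in the not gated barcodes under the limit and to 22.23 CPM in the other not gated barcodes. Of the former 39.4% held an MSM marker UMI, and of the latter 9.97%. Migratory DC and B cell markers were also higher under the limit, and those of the remaining types lower. Of the 181 not gated barcodes with 2 or more MSM markers, 84 lay under the limit. The 207 barcodes of other gated types under the same limit had a median mt- share of 1.55% and 0.00263% Neat1.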
